A study of Mus musculus with 16 samples.

Results

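The genes described here encode the histones, the proteins around which DNA is wound, and they were read in freshly sorted endothelial cells (ECs, the lining of blood vessels) of mouse lungs. The members were chosen by name and not by their values: every gene of the deposited table with the biotype protein_coding whose symbol starts with Hist1h, Hist2h, Hist3h or Hist4h (clustered genes) or with H2af, H3f or H1f (replacement genes). This gave 83 of 43346 genes, 68 of them clustered and 15 replacement. Lung ECs of young (2 months) and aged (18 months) FVB mice were sequenced after sham treatment with the carrier or after bleomycin, a drug that injures the lung and is followed by fibrosis. Of the 16 libraries, 5 are called Young Sham, 4 Young Bleo, 3 Aged Sham and 4 Aged Bleo. The study's methods say that the mice carried a Col1a1-GFP reporter, which marks collagen-making cells, and that lungs were taken about a month after delivery. Cells with the endothelial protein CD31 on their surface were kept, and those with the leukocyte protein CD45, the epithelial protein EpCAM or GFP were removed. The study describes the lungs as also giving its chromatin data, in which 1 mouse is 1 sample, and p-values measure the spread between libraries.

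Clustered histone genes make the bulk of histone protein when DNA is copied in S phase, and they lie in groups on a few chromosomes. Their mRNAs are unusual in that most end in a short conserved hairpin, bound by the stem-loop binding protein Slbp, in place of a poly(A) tail. Replacement histones are made throughout the cell cycle from ordinary polyadenylated mRNAs and are placed into chromatin outside S phase, so they build up in cells that no longer divide. Some clustered genes can also make polyadenylated transcripts in resting or differentiated cells. Both library protocols named for these samples start from poly(A) (oligo-dT cDNA in the labels, poly(A) selection in the study's methods), so the level of a clustered gene here is that of its transcripts caught through a poly(A) stretch and not that of all its mRNA.

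The hairpin that marks a replication-dependent histone mRNA is shown because it divides the members by how their mRNA ends. It was searched past the stop codon in coding transcripts of the GENCODE M21 annotation as a stem of 6 base pairs around a loop of 4 bases, and 40 of the 63 members with at least 16 annotated bases past the stop codon held it. The same search matched 565 of 21118 genes, 2.68%, and since any stem was allowed a match need not be the histone hairpin. Of these 40 genes, 39 were clustered and 1 was replacement. The most common form and the form of many H4 genes differed in the stem, and the only replacement gene with a match, H2afx, had its own form. Loop bases are in capitals and each sequence reads 5′ to 3′ along the gene's strand on mm10.
Hist1h1c and 23 other clustered genes: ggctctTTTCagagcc
Hist1h4h, Hist1h4d, Hist1h4n, Hist1h4m and 3 other H4 genes: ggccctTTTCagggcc
H2afx: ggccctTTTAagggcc
The hairpin of Hist1h1c lies at chr13:23739512-23739527, that of Hist1h4h at chr13:23531458-23531473, that of Hist1h4d at chr13:23581950-23581965 and that of H2afx at chr9:44335240-44335255, each in the exon part past the stop codon. In the annotation, the transcript of Hist1h1c runs on for 840 bases past the hairpin, that of Hist3h2a for 1643 and that of H2afx for 822. That of Hist1h4h ends 46 bases past it and that of Hist1h4m 3 bases past it. The 19 clustered genes whose annotated transcript ends 100 bases or more past the hairpin had a median mean level of 0.604 FPKM, against 0.150 FPKM for the 20 that end closer to it. Of the 66 clustered genes found in this annotation, 44 had the coordinates of the deposited table and 22 had others. The transcripts counted may thus end elsewhere than those measured here. No match was found past the stop codon of Hist1h2bc or Hist1h4i. The search misses a stem with a mismatch or another loop, so these genes may still carry the hairpin.

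Start regions are shown for Hist1h2ac, Hist1h4i and Hist1h1c because these genes had large differences between groups and carry different elements. They are the 250 bases before the start in RefSeq on GRCm38.p6, where 74 of the 83 members matched. Capitals mark matches to the box CCAAT, the promoter element TATAAA and the octamer ATTTGCAT. Each was searched on both strands, so a match on the opposite strand appears as its reverse complement.
Hist1h2ac, chr13:23683960-23684209, minus strand: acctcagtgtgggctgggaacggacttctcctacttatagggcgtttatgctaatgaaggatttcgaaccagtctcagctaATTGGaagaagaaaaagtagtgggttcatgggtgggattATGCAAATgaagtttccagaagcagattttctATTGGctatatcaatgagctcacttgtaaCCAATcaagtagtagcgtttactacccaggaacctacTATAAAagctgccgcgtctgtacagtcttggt
Hist1h4i, chr13:22041363-22041612, minus strand: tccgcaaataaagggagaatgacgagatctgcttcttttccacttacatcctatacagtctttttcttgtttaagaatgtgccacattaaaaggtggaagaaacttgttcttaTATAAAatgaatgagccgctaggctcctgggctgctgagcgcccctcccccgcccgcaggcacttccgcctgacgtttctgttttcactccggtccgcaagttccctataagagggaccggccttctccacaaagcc
Hist1h1c, chr13:23738557-23738806, plus strand: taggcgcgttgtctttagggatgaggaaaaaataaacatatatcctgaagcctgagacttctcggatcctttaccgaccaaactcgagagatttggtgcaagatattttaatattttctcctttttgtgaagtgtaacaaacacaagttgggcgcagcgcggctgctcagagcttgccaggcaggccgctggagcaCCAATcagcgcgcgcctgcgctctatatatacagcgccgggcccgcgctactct
Hist1h2ac had CCAAT at 69, 98 and 169 bases before the start, TATAAA at 32 and the octamer at 130. Hist1h4i had TATAAA at 137 and no CCAAT, and Hist1h1c had CCAAT at 54. Over windows that also hold the 50 bases after the start, CCAAT was found in 51 of 60 clustered genes (85.0%), 9 of 14 replacement genes and 37.9% of all 27025 promoters. TATAAA was found in 34 of 60 clustered genes (56.7%), 1 of 14 replacement genes and 14.2% of all promoters. The octamer was found in 13 of 60 clustered genes (21.7%), 1 of 14 replacement genes and 1.75% of all promoters. Among the clustered genes with a promoter entry, all 48 of the H1, H2A, H2B and H3 genes had CCAAT, against 3 of 12 H4 genes. The octamer was found in 7 of 16 H2A and 6 of 16 H2B genes and in none of the H1, H3 or H4 genes. Some of these windows overlap, since 12 pairs of members start head to head within 235 to 305 bases, 11 of them an H2A and an H2B gene of the Hist1 locus. Hist1h2ac and Hist1h2bc are such a pair, 274 bases apart, and they share the stretch shown for Hist1h2ac.

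The 68 clustered genes lie at 4 loci: 55 at Hist1 on chromosome 13, 10 at Hist2 on chromosome 3, 2 at Hist3 on chromosome 11 and 1 at Hist4 on chromosome 6. They comprise 6 genes of the linker histone H1 and 19 of H2A, 18 of H2B, 12 of H3 and 13 of H4, the core histones. Most were low. In all, 22 had a mean normalized count (counts divided by DESeq2 size factors, averaged over the 16 libraries) of at least 50, 14 had a mean of at least 1 FPKM (fragments scaled to gene length and library total, the level used for comparing genes) and 4 never passed 3 counts in any library. Few genes held the signal. The 8 highest held 85.6% of the summed FPKM of the clustered genes and Hist1h1c alone held 24.1%. In mean FPKM, Hist1h1c (H1.2, a linker histone) was at 40.2, Hist1h2bc at 30.6, Hist1h2al at 16.6, Hist1h4d at 16.3, Hist1h1e (H1.4) at 13.0, Hist1h4i at 12.1, Hist3h2a at 10.5 and Hist1h4h at 3.30. The step from Hist3h2a to Hist1h4h is the widest among these neighbours as a ratio, and high genes stand among low ones along the locus.

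**Figure D1:**
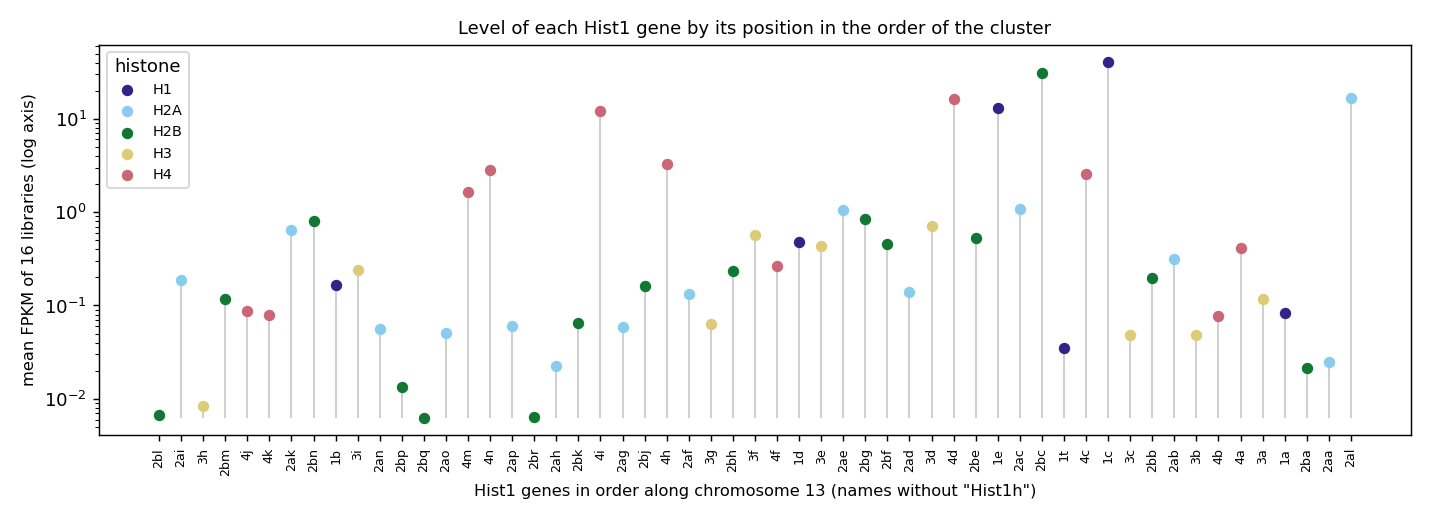
Mean deposited FPKM over the 16 libraries (log axis) of the 55 clustered genes of the Hist1 locus, in chromosomal order along chromosome 13, coloured by histone type. Hist1h1c (40.2) and Hist1h2bc (30.6) stand highest, and most of the 55 genes are below 1 FPKM.

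Many members have near-identical copies. A median of 35.7% of the 100-base words of a clustered gene's annotated transcripts also occur in another gene, against 3.27% for a replacement gene, and the rule for reads that fit several places is not given in the sources used here. By this measure Hist1h1c (5.07%), Hist1h4i (15.1%) and Hist1h2bc (25.4%) are largely their own, while Hist1h2ad (63.6%), Hist1h4n (80.7%), Hist1h4m (88.1%) and Hist2h2aa2 (100%) are uncertain. These shares and the overlaps that follow rest on GENCODE M21. There 22 of the 66 clustered genes found, Hist1h2bc among them, had coordinates other than in the deposited table. Among the genes named here, Hist1h2be overlaps Hist1h1e of that annotation, Hist3h2a overlaps Trim17, and Hist2h2aa2 and Hist2h3c1 overlap Gm20634. Each overlap is on the same strand, so reads in it are uncertain under any strand setting. Strand-specific counting is not stated either, which matters for genes that overlap another on the opposite strand. Of the genes named here, these are H3f3a, H2afy2, H2afy, H1f0, H1fx and Hist2h2aa2. With a microRNA gene they are also H2afx, H2afj, Hist3h2a, Hist2h2ac, Hist1h2ab, Hist1h2ac, Hist1h2ad, Hist1h2ae and Hist1h2al.

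The first comparison asked how the histone genes of uninjured ECs differ with age. In Aged Sham against Young Sham, 5 clustered genes rose and 0 fell of 49 that received an adjusted p in DESeq2, beside 2.24% of 18515 genes called higher and 1.12% called lower. The 5 were Hist1h2bc, Hist1h4h, Hist1h4i, Hist1h2al and Hist1h1c. Called means an adjusted p no higher than 0.05 together with a log2 fold change of 0.5 or more in either direction. The median log2 fold change of the 49 genes was 0.60, with 34 above and 15 below 0, against a median of 0.02 over all genes. edgeR's quasi-likelihood test called 2 of them, Hist1h2bc and Hist1h4h, and 0.862% of all genes in either direction. In bulk samples such as these, fewer cells of a type and less RNA per cell cannot be told apart.

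Hist1h2bc (ENSMUSG00000018102, chr13:23684199-23692488), which encodes an H2B, had normalized counts of 1741, 1342, 1864, 2127 and 1363 in Young Sham and 5209, 8334 and 2884 in Aged Sham. Every Aged Sham library lay above every Young Sham library. Its log2 fold change, given with the SE throughout, was 1.70 ± 0.30 (adjusted p = 5.2e-06 in DESeq2 and 0.0087 in edgeR). Hist1h4h (ENSMUSG00000060981, chr13:23531050-23531522), which encodes the core histone H4, had 137, 109.6, 152, 126 and 85.1 normalized counts in Young Sham and 404, 351 and 207 in Aged Sham. The groups again did not overlap, and the spread within Aged Sham (SD 102) was smaller relative to its mean (320.3) than for Hist1h1c. Its log2 fold change was 1.40 ± 0.31, with an adjusted p of 0.0012 in DESeq2 and 0.045 in edgeR. Both genes were called in DESeq2 whichever single library was left out.

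Hist1h1c (ENSMUSG00000036181, chr13:23738808-23740367) had 5947, 5487, 5448, 6147 and 4488 normalized counts in Young Sham and 9108, 25190.2 and 6773 in Aged Sham. All Aged Sham libraries were higher, but Aged Sham 14 alone was at several times the level of the others. The log2 fold change was 1.31 ± 0.35, with an adjusted p of 0.010 in DESeq2 and 0.085 in edgeR. Without Aged Sham 14 it was 0.53, with an adjusted p of 0.419 in DESeq2. Hist1h4i (ENSMUSG00000060639, chr13:22040636-22041362), another H4 gene, had 838, 873, 779, 926 and 383 normalized counts in Young Sham and 1942, 4352 and 1364 in Aged Sham. Its groups did not overlap, and Aged Sham 14 was again the highest. The log2 fold change was 1.75 ± 0.48 (adjusted p = 0.012 in DESeq2 and 0.094 in edgeR) and 1.12 without Aged Sham 14 (adjusted p = 0.302 in DESeq2). Hist1h2al (ENSMUSG00000091383, chr13:51202688-51203065), an H2A gene far from the rest of the locus, had 583, 405, 670.5, 483 and 528 normalized counts in Young Sham and 1507, 1155 and 688 in Aged Sham. Here Aged Sham 13 was the highest and Aged Sham 15 lay just above the Young Sham range. Its log2 fold change was 1.06 ± 0.27 (adjusted p = 0.0052 in DESeq2 and 0.059 in edgeR) and 0.79 without Aged Sham 13 (adjusted p = 0.102 in DESeq2).

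Other clustered genes did not pass the test between the sham groups. Hist1h2ac, an H2A gene, had the highest estimate among members with a mean of at least 50, at 1.77 ± 0.68 (adjusted p = 0.14, DESeq2). Hist1h4d, an H4 gene, was at 712, 576, 809.9, 670.3 and 439 normalized counts in Young Sham and at 1836, 638 and 560.2 in Aged Sham, so that 1 library stood out and the others overlapped (log2 fold change 0.65, adjusted p = 0.36, DESeq2). Hist1h1e was at 1263, 1515, 1534, 983 and 966 in Young Sham and at 1283, 509 and 422 in Aged Sham. Its estimate of -0.77 (adjusted p = 0.21, DESeq2) had the other sign than that of Hist1h1c, the other abundant linker histone gene. Hist2h2be, an H2B gene of the Hist2 locus, had an estimate of -0.77 ± 0.78 (adjusted p = 0.71, DESeq2) and Hist3h2a, an H2A gene, one of 0.12.

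**Figure D2:**
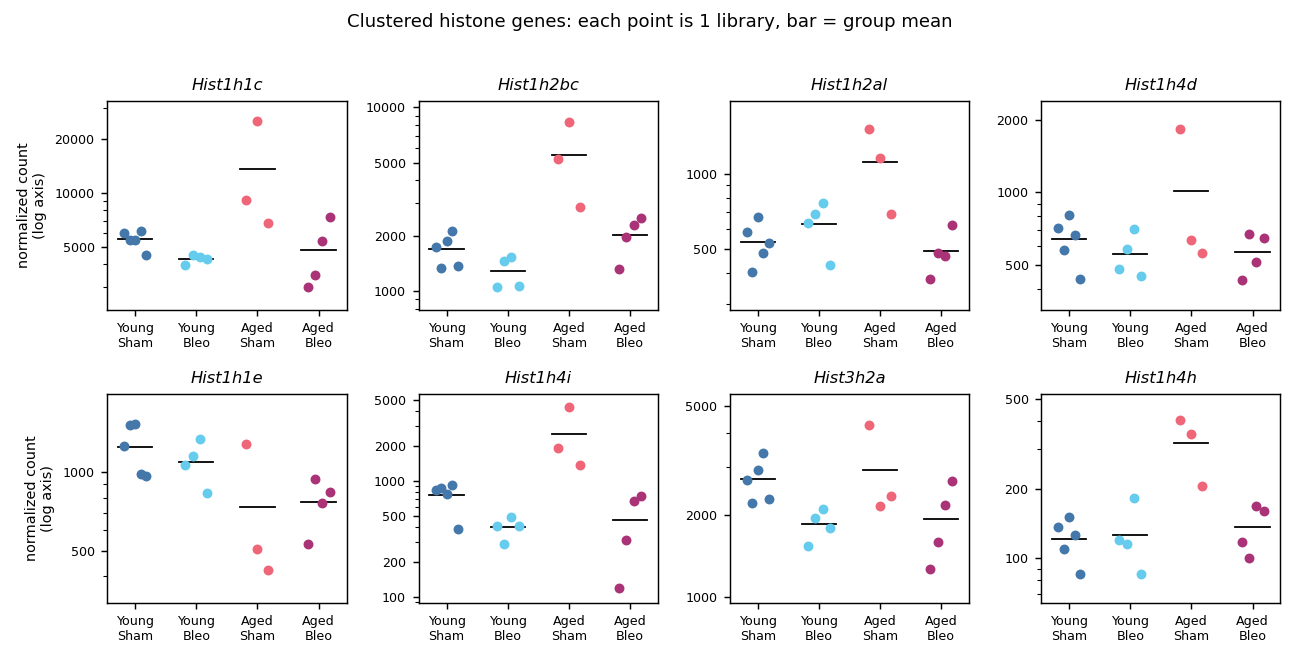
Normalized counts (log axes) of the 8 clustered histone genes with the highest FPKM, with 1 point per library, by group, and a line at the group mean. The Aged Sham libraries of Hist1h2bc (2884 to 8334) and Hist1h4i (1364 to 4352) sit above all libraries of the other groups.

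The second comparison asked what bleomycin changed in aged mice. In Aged Bleo against Aged Sham, 0 clustered genes rose and 11 fell of 49 that received an adjusted p, beside 3.4% of all genes called higher and 2.45% called lower by DESeq2. This comparison shares the Aged Sham libraries with the one before, so the counts are not independent. The median log2 fold change was -0.60, with 16 genes above and 33 below 0, against 0.01 over all genes. edgeR called 3 of the 11, Hist1h4i, Hist1h2bc and Hist1h2al, and 0.797% of all genes.

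By type, the 11 were 4 H4 genes (Hist1h4h, Hist1h4i, Hist1h4m, Hist1h4n), 4 H2A genes (Hist1h2ac, Hist1h2ad, Hist1h2al, Hist2h2aa2), 2 H2B genes (Hist1h2bc, Hist1h2bg) and the H1 gene Hist1h1c. Hist1h4i fell to 118, 308, 670.1 and 747 normalized counts in Aged Bleo, below every Aged Sham library and also below the Young Sham mean of 760.1. Its log2 fold change was -2.47 ± 0.50, with an adjusted p of 0.00019 in DESeq2 and 0.044 in edgeR. Hist1h2bc had 1312, 1966, 2283 and 2488 in Aged Bleo, all below the lowest Aged Sham library. It fell by 1.44 ± 0.31 on the log2 scale (adjusted p = 0.00053 in DESeq2 and 0.044 in edgeR). Hist1h2al was at 379, 482, 466 and 624 in Aged Bleo, under the lowest Aged Sham value of 688, and fell by 1.19 ± 0.28 (adjusted p = 0.0016 in DESeq2 and 0.049 in edgeR). These 3 genes were called in DESeq2 whichever single library was left out.

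Hist1h1c was at 2963, 3466, 5401 and 7359.7 normalized counts in Aged Bleo. These overlap the Aged Sham range, since Aged Bleo 5 was above Aged Sham 15. The log2 fold change was -1.51 ± 0.37 (adjusted p = 0.0026 in DESeq2 and 0.054 in edgeR), and without Aged Sham 14 it was -0.73 (adjusted p = 0.114, DESeq2). Hist1h4n had 196, 537 and 207 in Aged Sham and 20.4, 31.7, 119 and 95.7 in Aged Bleo. The groups did not overlap, and the log2 fold change was -2.23 ± 0.54 (adjusted p = 0.0026 in DESeq2 and 0.058 in edgeR). Without Aged Sham 14 its adjusted p was 0.073 in DESeq2. Hist1h4h was at 118, 100.2, 169 and 161 in Aged Bleo, within or near the Young Sham range, and fell by 1.22 ± 0.33 from Aged Sham (adjusted p = 0.0074 in DESeq2 and 0.074 in edgeR). Without Aged Sham 13 its adjusted p was 0.077.

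Hist1h4m was at 102, 298 and 161 normalized counts in Aged Sham and at 4.7, 10.3, 73.2 and 58.4 in Aged Bleo, and fell by 2.35 ± 0.75 (adjusted p = 0.034 in DESeq2 and 0.13 in edgeR). Hist1h2ac was at 154, 209 and 76.8 against 7.84, 10.3, 28.8 and 58.4, and fell by 2.48 ± 0.71 (adjusted p = 0.015 in DESeq2 and 0.098 in edgeR). In both genes Aged Bleo 1 and 2 were lowest, and no library overlapped the other group. Hist1h2bg was at 54, 91.2 and 80.4 against 12.5, 33.2, 15 and 27.6 (log2 fold change -1.78 ± 0.60, adjusted p = 0.047 in DESeq2 and 0.19 in edgeR). Hist2h2aa2 was at 46, 27.7 and 18.3 against 5.49, 8.11, 6.6 and 8.11 (log2 fold change -2.08 ± 0.55, adjusted p = 0.0062 in DESeq2 and 0.11 in edgeR). Hist1h2ad had 0 counts in all 4 Aged Bleo libraries and 20, 30 and 0.914 normalized counts in Aged Sham. Against a floor of 3 counts over the Aged Bleo group this is at least 31.3-fold lower (adjusted p = 0.0019 in DESeq2 and 0.054 in edgeR), a bound that is 19.3-fold without Aged Sham 14 and 46.1-fold without Aged Sham 15. These 5 genes were not called in every fit that left out 1 of the 16 libraries. The adjusted p in DESeq2 reached 0.195 for Hist1h4m and 0.10 for Hist1h2ac, each lost in 4 fits, without Aged Sham 14, and 0.0765 for Hist2h2aa2 in its 1 lost fit, without Aged Sham 13. Hist1h2bg lost its call in 13 fits, among them fits without a young library, with an adjusted p of up to 0.180. Hist1h2ad received no adjusted p in 8 of the 16 fits.

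Not all clustered genes were lower in Aged Bleo than in Aged Sham. Hist2h2ac, the H2A gene that starts head to head with Hist2h2be, was at 102, 28.8 and 11 normalized counts in Aged Sham and at 53.3, 125, 37.2 and 87.6 in Aged Bleo. The groups overlapped and the estimate was 0.71 ± 0.64 (adjusted p = 0.61, DESeq2). Hist1h4d (-0.83, adjusted p = 0.16) did not pass the test, and Hist1h1e was at 533, 945, 764 and 842 in Aged Bleo, inside the Aged Sham range.

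Summed over the 68 clustered genes, normalized counts were 15800.2, 14034, 16053, 16422 and 12189 in Young Sham and 10666, 12459, 13279 and 10857 in Young Bleo. They were 28303, 45752 and 16985 in Aged Sham and 8252, 11101, 14126 and 17251 in Aged Bleo. Every Aged Sham library lay above every sham library of young mice, by a small margin for Aged Sham 15, while Aged Bleo 5 lay above Aged Sham 15. The ratio of group means was 2.04 for Aged Sham over Young Sham (1.52 without Aged Sham 14, 2.49 without Aged Sham 15) and 0.418 for Aged Bleo over Aged Sham (0.343 to 0.560 with a library left out). These sums carry no test. Without Hist1h1c the ratios were 1.77 and 0.473. All 5 types were higher on average in Aged Sham than in Young Sham. H1 was at 14467 ± 9888 (SD, n = 3) against 6786 ± 739 (SD, n = 5), H2B at 6246 ± 2983 against 2318 ± 373 and H4 at 4733 ± 1854 against 2013 ± 436. With all 3 Aged Sham libraries the gap was smaller for H2A (4434 ± 1633 against 3470.0 ± 508) and for H3 (467 ± 111 against 313 ± 55.7). The H1 sum was 10397, 25741 and 7264 in the 3 Aged Sham libraries, and its ratio to Young Sham was 2.13 with all of them and 1.3 without Aged Sham 14. The H2A ratio was 1.28, and 1.01 without Aged Sham 13. Without Aged Sham 14 it was 1.38 for H2A and 1.37 for H3, above that of H1. As a share of the library, clustered genes took 336 ± 40.7 CPM (counts scaled to the library total) in young mice after sham and 282 ± 26.7 CPM after bleomycin. In aged mice they took 641 ± 296 CPM after sham and 298 ± 94.1 CPM after bleomycin. Replacement genes took 1696 ± 133, 2045 ± 304, 1852 ± 280.3 and 1821 ± 305 CPM in the same order, so their group means differed far less as a ratio.

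**Figure D3:**
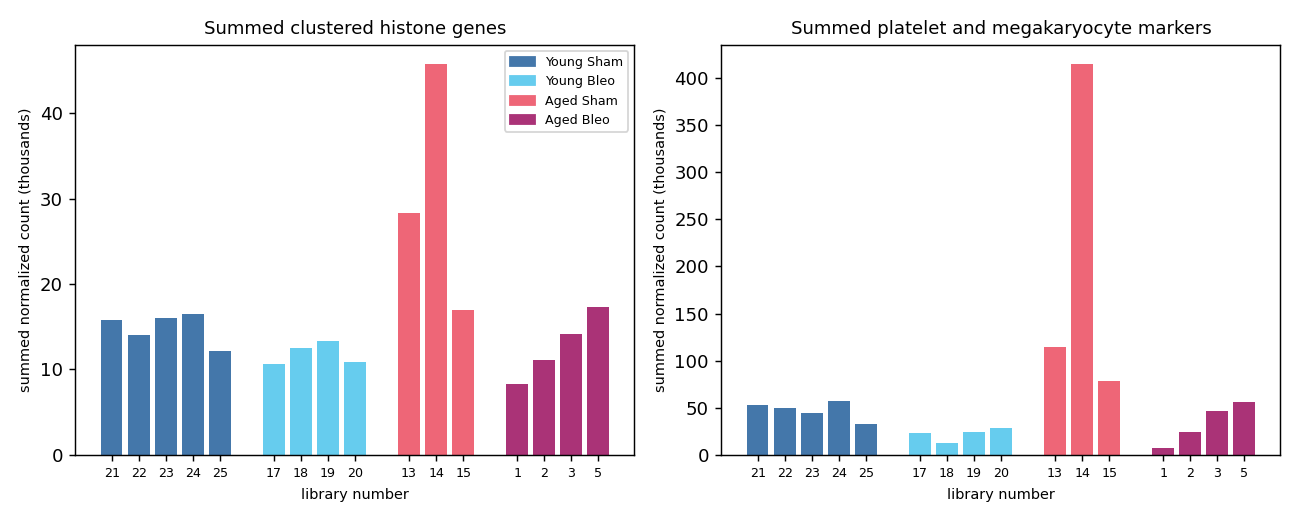
Summed normalized counts, on linear axes from 0, of the clustered histone genes (left) and of the platelet and megakaryocyte markers (right), with 1 bar per library, coloured by group and labelled with the library number. The clustered sum is highest in Aged Sham 14 (45752), where the platelet marker sum is also highest (415088).

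Markers of other cells moved with the sham and aged groups. The libraries carried all 12 endothelial markers examined (Cldn5 at a median of 1207.5 FPKM, Pecam1 at 112, Cdh5 at 86.6). Other cell types were also read. Of the epithelial list, Epcam (median 0.20 FPKM) and Cdh1 (0.22) were low while Sftpc (197), Hopx (146) and Scgb1a1 (28.5) were not. Of the leukocyte list, Ptprc (0.05) was low while Lyz2 (148, up to 1265) was not. Between the sham groups DESeq2 called 3 of 4 mesothelial, 3 of 13 leukocyte, 2 of 5 erythroid and 1 of 7 fibroblast markers higher with age, 1 of 6 pericyte and smooth muscle markers lower, and 1 of 12 endothelial markers each way. Between the aged groups it called 5 leukocyte markers higher, 2 of 6 pericyte and 2 of 7 fibroblast markers lower, and 1 endothelial marker each way. The summed normalized count of 7 platelet and megakaryocyte markers ranged from 32252 to 57140.0 in young mice after sham and from 12285 to 28385 after bleomycin. In aged mice it ranged from 78099 to 415088 after sham and from 7452 to 55761 after bleomycin, and none of the 7 markers was at 0 in any library. DESeq2 called 5 of the 7 higher in Aged Sham than in Young Sham, with log2 fold changes of 2.32 for Gp1bb, 2.27 for Ppbp and 2.06 for Pf4, and 6 of the 7 lower in Aged Bleo than in Aged Sham. By edgeR 1 of the 7 was called higher between the sham groups and 2 of the 7 lower between the aged groups. Within Aged Sham and within Aged Bleo, the libraries stood in the same order by the platelet sum as by the clustered sum and by Hist1h1c, Hist1h2bc, Hist1h4i and Hist1h2ac. Of the 22 clustered genes with a mean of at least 50, 7 had that order in Aged Sham, 6 in Aged Bleo, these 4 in both and 13 in neither, among the latter Hist1h4h and Hist1h2al, called between the sham groups, and Hist1h4m and Hist1h4n. With 3 Aged Sham libraries few orders are possible. How often all genes share these orders was not counted, so the tally has no baseline. In Young Sham and Young Bleo the order by the clustered sum differed from that by the platelet sum, though Hist1h1c and Hist2h3c1 had the platelet order in Young Sham. In Aged Sham the leukocyte sum put the libraries in the same order as the platelet sum. With the log of the platelet sum as a covariate, a fit added after the data were seen, the log2 fold change between the sham groups was 0.25 for Hist1h1c (adjusted p = 0.886), 0.17 for Hist1h4i (0.954), 1.06 for Hist1h4h (0.196), 0.85 for Hist1h2al (0.285) and 1.01 for Hist1h2bc (0.035, DESeq2). Only Hist1h2bc of the 5 was still called, and 0 of the 11 lower genes were called between the aged groups. Over all genes this fit called 356 of 24562 between the sham groups (622 of 18515 without the covariate) and 25 of 26553 between the aged groups (1083 of 18515 without it). The ranges of the platelet sum do not overlap between Aged Sham and any other group, so its part and that of age or treatment cannot be told apart.

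The third comparison asked what bleomycin changed in young mice. In Young Bleo against Young Sham, 1 clustered gene rose and 2 fell of 49 that received an adjusted p, beside 7.57% of all genes called higher and 6.35% called lower. The median log2 fold change of the 49 was -0.12. edgeR called 1 of the 3, Hist1h2bn, and 9.78% of all genes. Hist1h2bn, an H2B gene that shares 52.1% of its 100-base words, was at 34, 51.9, 39, 49.1 and 38.1 normalized counts in Young Sham and at 1.73, 7.28, 0 and 5.41 in Young Bleo. The groups did not overlap, and it fell by 3.55 ± 0.87 on the log2 scale (adjusted p = 0.00095 in DESeq2 and 0.034 in edgeR). Hist1h4n was at 144, 149.9, 137, 103 and 105 against 28.6, 58.2, 48.5 and 70.3, again without overlap (log2 fold change -1.31 ± 0.48, adjusted p = 0.044 in DESeq2 and 0.11 in edgeR). The call was lost in 8 of 16 fits that leave out a library, with an adjusted p of up to 0.162 without Young Bleo 17 in DESeq2.

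Hist1h2ab, an H2A gene, was the clustered gene that rose. It had 6.61, 7.41, 14.4, 0 and 14.7 normalized counts in Young Sham and 32.1, 37.4, 48.5 and 18.5 in Young Bleo, and the groups did not overlap although all counts are low. The log2 fold change was 2.02 ± 0.62 (adjusted p = 0.012 in DESeq2 and 0.12 in edgeR), and 2 of 16 fits lost the call, with an adjusted p of up to 0.0770 without Young Bleo 19. The abundant genes Hist1h1c (-0.36, adjusted p = 0.53), Hist1h4i (-0.93, adjusted p = 0.14) and Hist3h2a (-0.55, adjusted p = 0.11, DESeq2) did not pass. Every Young Bleo library of Hist3h2a (1530.0 to 2100.5) nevertheless lay below every Young Sham library (2199.7 to 3372). Among members with a mean of at least 50, Hist1h2ae (H2A) had the highest estimate, 0.76 ± 0.53. Hist1h4m had the lowest after Hist1h4n, -1.10 ± 0.67, and neither Hist1h2ae nor Hist1h4m passed.

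Few clustered genes were called between the aged and young injured groups. In Aged Bleo against Young Bleo, 0 clustered genes rose and 1 fell of 50, beside 0.585% of 18986 genes called higher and 0.406% called lower. This was Hist1h2ab, at 7.06, 4.42, 7.2 and 5.68 normalized counts in Aged Bleo, below all Young Bleo libraries (log2 fold change -2.48 ± 0.66, adjusted p = 0.022 in DESeq2 and 0.39 in edgeR). In 6 of 16 fits the call was lost, with an adjusted p of up to 0.164 without Young Bleo 19 in DESeq2. By edgeR 0 members were called there, beside 0.0437% of all genes, and among genes with an adjusted p in DESeq2, 7 of 50 clustered and 1 of 11 replacement genes had an unadjusted p below 0.05, beside 10.5% of all genes. For Hist1h2bc the estimate was 0.65 (95% interval 0.09 to 1.22, adjusted p = 0.36), and for Hist1h1c 0.16 (-0.50 to 0.83). Among members with a mean of at least 50, the 2 highest and the 2 lowest estimates were 0.76 ± 0.39 for Hist1h2be (H2B), 0.69 ± 0.36 for Hist2h3c1 (H3), -0.62 ± 0.55 for Hist1h2ae and -0.60 ± 0.51 for Hist2h4 (H4), and none passed. In Aged Bleo against Young Sham, 0 clustered genes rose and 1 fell of 49, beside 6.58% called higher and 3.14% called lower. This was Hist1h2ad, at 11.3, 9.06, 8.2, 0 and 6.84 normalized counts in Young Sham and 0 in Aged Bleo, at least 13.1-fold lower on the same floor (adjusted p = 0.0044 in DESeq2 and 0.037 in edgeR, which called 5.69% of all genes). The groups overlap because Young Sham 24 also had 0. Hist1h3f (H3) had an estimate of -1.15 ± 0.51 and Hist2h3c1 one of 0.63 ± 0.35 in this comparison, and neither passed.

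Whether bleomycin acted differently in aged and young mice was tested as a difference of the 2 responses. For this contrast 0 clustered genes were called higher and 1 lower of 60 that received an adjusted p, beside 0.137% and 0.24% of 20380 genes. The gene was Hist1h2al, with a difference of -1.43 ± 0.37 on the log2 scale (adjusted p = 0.038 in DESeq2 and 0.352 in edgeR). By edgeR 0 members were called, beside 0.00546% of all genes, and 10 of 60 clustered genes had an unadjusted p below 0.05 in DESeq2, beside 7.79% of all genes. Its normalized counts were 534 ± 101 (SD, n = 5) in Young Sham and 630.2 ± 142 (SD, n = 4) in Young Bleo, against 1117 ± 411 (SD, n = 3) in Aged Sham and 488 ± 101 (SD, n = 4) in Aged Bleo. The call was lost in 12 of the 16 fits that leave out a library, with an adjusted p of up to 0.157 without Aged Sham 13 in DESeq2. For Hist1h2ac the difference was -1.90 ± 0.95 and for Hist1h4i it was -1.54, the lowest among members with a mean of at least 50. The highest were Hist2h2ac (0.77, adjusted p = 0.88) and Hist2h2be (0.69, adjusted p = 0.92, DESeq2), and none of the 4 passed. The median difference of the 60 genes was -0.94, with 14 above and 46 below 0, against 0.01 over all genes.

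**Figure D4:**
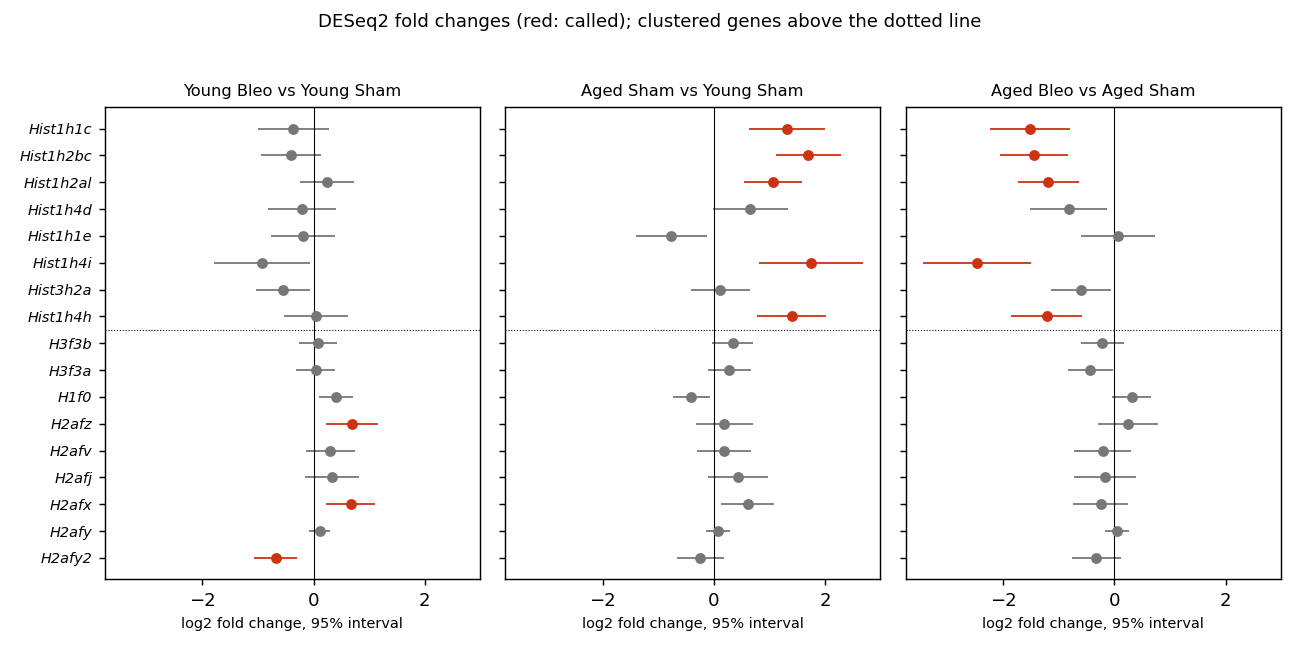
Log2 fold changes from DESeq2 (points) with 95% intervals (bars) of the 8 highest clustered genes, above the dotted line, and of 9 replacement genes, below it, in 3 comparisons, with called genes in red. In Aged Sham against Young Sham the called genes lie between 1.06 and 1.75, and in Aged Bleo against Aged Sham between -2.47 and -1.19.

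Replacement genes together took more of each library than the clustered genes, as the CPM values above show. Of the 15, 9 had a mean of at least 1 FPKM, 4 (H2afb1, H2afb2, H2afb3 and H1fnt, known from the testis) had 0 counts in every library, and H1foo (the oocyte linker histone, mean 0.0307 FPKM) and H1fx (0.717 FPKM) were low. H3f3b and H3f3a, which encode the same H3.3 protein, led with 100.3 ± 8.04 and 45.6 ± 6.12 FPKM in Young Sham (SD, n = 5), and H3f3b held 36.1% of the summed FPKM of the class. In Young Bleo, Aged Sham and Aged Bleo, H3f3b was at 108 ± 13.3, 115 ± 11.7 and 107 ± 21.7 FPKM. The 95% interval of its log2 fold change was -0.26 to 0.42 for bleomycin in young mice, -0.03 to 0.70 for age and -0.61 to 0.16 for bleomycin in aged mice. H3f3a had 47.6 ± 8.77, 50.3 ± 6.91 and 40.7 ± 4.10 FPKM in the same groups and did not pass any test either.

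In Young Bleo against Young Sham, 2 replacement genes rose and 1 fell of 10 that received an adjusted p, beside the 7.57% and 6.35% given above. The genes were H2afz, H2afx and H2afy2. edgeR called H2afx and H2afy2. The median log2 fold change was 0.29, with 9 above 0 and 1 below. H2afz (ENSMUSG00000037894, chr3:137864487-137866922) encodes H2A.Z, the variant found around the start sites of active genes. It was at 28.2, 24.6, 23.5, 28.2 and 25.5 FPKM in Young Sham and at 48.3, 47.2, 48.2 and 26.9 in Young Bleo. Young Bleo 20 lay inside the Young Sham range and the other 3 libraries were far above it. On counts the log2 fold change was 0.69 ± 0.24 (adjusted p = 0.031 in DESeq2 and 0.060 in edgeR), and the call was lost in 6 of the 16 fits that leave out a library, with an adjusted p of up to 0.120 without Young Bleo 19. H2afx (ENSMUSG00000049932, chr9:44334694-44336077) encodes H2A.X, which is phosphorylated at DNA breaks. It had 1039, 1265, 1355, 1289 and 875 normalized counts in Young Sham and 1854, 2281, 2009 and 1248 in Young Bleo. The groups overlap through Young Bleo 20, and the log2 fold change was 0.67 ± 0.22 (adjusted p = 0.024 in DESeq2 and 0.050 in edgeR). In 5 of 16 fits the call was lost, with an adjusted p of up to 0.127 without Young Bleo 18 in DESeq2. In Aged Sham H2afx was at 2548, 1329 and 1458 (0.61 against Young Sham, adjusted p = 0.17, DESeq2), and in Aged Bleo at 1466, 1773, 1272 and 1465.

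H2afy2 (ENSMUSG00000020086, chr10:61738665-61784147) encodes macroH2A2, a large H2A variant of repressed chromatin. It was at 1405, 1663, 1554, 1589.7 and 1189 normalized counts in Young Sham and at 653, 892, 975 and 1180.0 in Young Bleo. All Young Bleo libraries were lower, Young Bleo 20 by a narrow margin. It fell by 0.68 ± 0.20 (adjusted p = 0.0072 in DESeq2 and 0.035 in edgeR) and was called whichever library was left out. In Aged Bleo it was at 815, 843, 1145 and 1179, below every Young Sham library, with a log2 fold change of -0.57 ± 0.20 (adjusted p = 0.038 in DESeq2, lost in 7 of 16 fits with up to 0.178 without Aged Bleo 1, and 0.093 in edgeR). That was the single replacement gene called in Aged Bleo against Young Sham, of 10, beside the 6.58% of all genes called higher and 3.14% called lower. The related H2afy, which encodes macroH2A1, was at 7.10, 7.77, 6.75 and 7.62 FPKM on average in Young Sham, Young Bleo, Aged Sham and Aged Bleo, and its log2 fold change in Young Bleo against Young Sham was 0.11 (95% interval -0.09 to 0.30).

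The linker histone gene H1f0, whose protein H1.0 builds up in resting cells, was at 39.2 ± 5.51, 52.7 ± 8.45, 26.8 ± 4.61 and 36.3 ± 6.17 FPKM in Young Sham, Young Bleo, Aged Sham and Aged Bleo. All Young Bleo libraries lay above all Young Sham libraries by normalized counts (10631 to 14739 against 7697 to 10287), and the log2 fold change of 0.40 ± 0.16 did not pass (adjusted p = 0.06, DESeq2). Between the sham groups its estimate was -0.41 (adjusted p = 0.19), and between the injured groups -0.50 (adjusted p = 0.11, DESeq2), without overlap of the injured groups. H1fx, which encodes the linker histone H1.10, had an estimate of -0.74 ± 0.35 between the sham groups (adjusted p = 0.29, DESeq2) and of 0.52 ± 0.36 between the aged groups (adjusted p = 0.48). H2afv (H2A.Z.2) averaged 26.8, 33.6, 27.5 and 26.1 FPKM in the order of groups above. H2afj, another H2A variant, was lowest in Young Sham, and its mean was 19.5 FPKM for Aged Sham, 19.2 for Aged Bleo and 20.5 for Young Bleo. Neither passed any test. Between the sham groups, between the aged groups, between the injured groups and for the difference of responses, 0 replacement genes were called by DESeq2 or edgeR, and 3 of 10, 1 of 10, 1 of 11 and 1 of 11 had an unadjusted p below 0.05 in DESeq2, beside 14.5%, 19%, 10.5% and 7.79% of all genes.

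**Figure D5:**
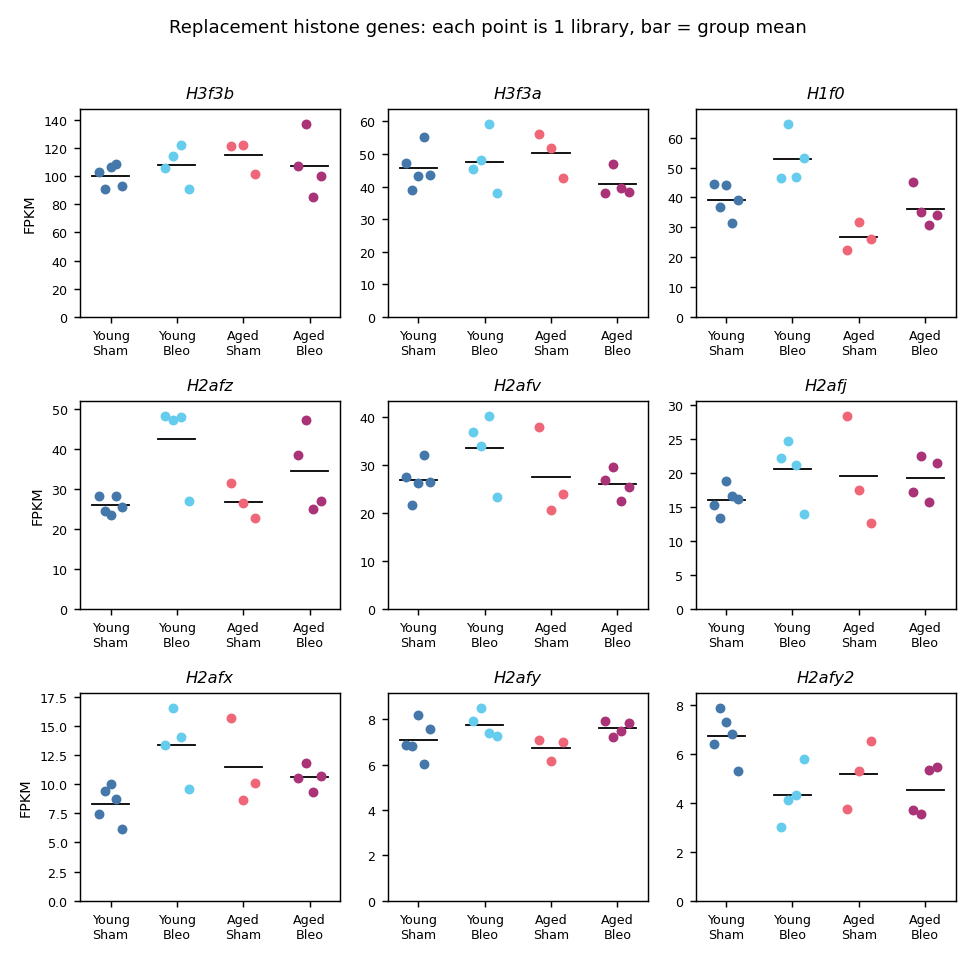
Deposited FPKM of the 9 replacement histone genes with a mean of at least 1 FPKM, in each of the 16 libraries by group, with the group mean as a line. For H2afz 3 Young Bleo libraries stand at 47.2 to 48.3 FPKM and the other at 26.9, within reach of Young Sham.

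The sum of the leukocyte markers rose with bleomycin, though not every marker of the list did. The summed normalized count of the 13 leukocyte markers in the table (of 14) ranged from 3337 to 5409 in young mice after sham and from 17993 to 55212 after bleomycin. In aged mice it ranged from 7804 to 23435 after sham and from 26714 to 177462 after bleomycin. Lyz2 held most of this sum, on average 4205 of 4853 in Young Sham and 80903 of 89590 in Aged Bleo. The means of Cd3e (26.1 to 14.4), Cd79a (72.2 to 69.6) and Ms4a1 (31.0 to 14.8) were lower in Young Bleo than in Young Sham. Between the aged groups Cd79a and Ms4a1 were also lower after bleomycin, while Cd3e was higher. Of the markers, 7 were called higher in Young Bleo than in Young Sham, where all 4 mesothelial markers were also called higher and 3 of 6 pericyte markers lower, with 2 of 12 endothelial markers higher and 4 lower. There 2 of 10 epithelial markers (Ager and Hopx) and 1 of 7 fibroblast markers (Tcf21) were called lower and 1 of 5 erythroid markers (Hba-a1) higher. In Aged Bleo against Young Sham DESeq2 called 8 of 13 leukocyte and 3 of 4 mesothelial markers higher. It called 6 of 6 pericyte and smooth muscle, 4 of 7 fibroblast and 1 of 10 epithelial markers lower. Of the 12 endothelial markers it called 2 higher and 3 lower. Lyz2 ran from 20.9 to 1265 FPKM over the libraries and Cd68 from 0.433 to 62.2, while Ptprc, the gene of CD45, did not pass 0.517. With the log of this sum as a covariate, also added after the data were seen, the estimate in Young Bleo against Young Sham was -0.20 for H2afz (adjusted p = 1.0), 0.37 for H2afx (adjusted p = 1.0) and -0.19 for H2afy2 in DESeq2, and none was called. Over all genes that fit called 65 of 26553, against 2578 of 18515 without the covariate. The ranges of the leukocyte sum do not overlap between the sham and bleomycin groups of either age, so its part and that of the treatment cannot be told apart.

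Genes that act on histones were read beside the members. Over all genes DESeq2 called 7.57% higher and 6.35% lower in Young Bleo against Young Sham, and 2.24% and 1.12% between the sham groups. The shares were 3.4% and 2.45% between the aged groups and 6.58% and 3.14% in Aged Bleo against Young Sham. Of 14 genes for making histone mRNA, 0 rose and 1 fell in Young Bleo against Young Sham, the cleavage factor gene Cstf2 (-1.05 ± 0.35, adjusted p = 0.022 in DESeq2 and 0.070 in edgeR), and 0 were called in the other contrasts. Slbp, which binds the hairpin, had a log2 fold change of 0.14 ± 0.16 between the sham groups and 0.02 ± 0.17 between the aged groups, and Npat, the coactivator of clustered histone transcription, -0.41 ± 0.24 and 0.28 ± 0.25. Of 14 chaperones that place histones behind the replication fork, 3 rose and 0 fell in Young Bleo against Young Sham. They were Chaf1b (1.47 ± 0.32, adjusted p = 0.00019), a subunit of chromatin assembly factor 1, Asf1b (1.59 ± 0.46, 0.0065) and Nasp (0.72 ± 0.20, 0.0038, DESeq2). Between the sham groups 1 was called, Nap1l1 (0.52 ± 0.15, adjusted p = 0.016 in DESeq2 and 0.098 in edgeR), and between the aged groups 1, Asf1b (2.00 ± 0.53, adjusted p = 0.0067 in DESeq2 and 0.077 in edgeR). DESeq2 also called Asf1b higher in Aged Bleo against Young Sham, where edgeR called 1 of the 14 higher. Of 16 genes for replacement histone deposition, 1 rose in Young Bleo against Young Sham, Hjurp (1.48 ± 0.36, adjusted p = 0.00073), the chaperone of the centromeric H3, and 1 in Aged Bleo against Young Sham, Daxx (0.59 ± 0.14, adjusted p = 0.0011, DESeq2), an H3.3 chaperone.

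Genes of DNA replication and S phase, when clustered histone genes are known to be switched on, were read in the same groups. The list also held Ccna2, Mki67, Top2a and Cdk1, which mark dividing cells and are not particular to S phase. Of these 26 genes, 7 rose and 0 fell in Young Bleo against Young Sham, beside 7.57% of all genes called higher and 6.35% called lower. The 7 were Ccna2, Mki67, Top2a and Cdk1, and also Cdc45, Tyms and Tk1. The median log2 fold change of the 26 was 0.51, where the median of the clustered genes was -0.12. Examples were Top2a (1.72 ± 0.41, adjusted p = 0.00054), Tyms (0.88 ± 0.21, 0.00076), Ccna2 (1.05 ± 0.26, 0.0014) and Tk1 (1.89 ± 0.48, 0.0017, DESeq2), and edgeR called the same 7. In Aged Sham against Young Sham 0 of the 26 were called in either direction by DESeq2, beside 2.24% of all genes called higher and 1.12% called lower. The median was -0.22, where the median of the clustered genes was 0.60. In Aged Bleo against Aged Sham 3 rose (Top2a, Cdk1, E2f1) and 2 fell (Rpa2, Prim1) by DESeq2, beside 3.4% and 2.45% of all genes. By edgeR 0 rose and 1, Rpa2, fell. In Aged Bleo against Young Sham 5 of the 26 rose and 1 fell by DESeq2, beside 6.58% and 3.14% of all genes. There edgeR called 2 higher and 1 lower. No test compared the lists with each other.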

How the data were processed

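Per the labels and the study's methods, RNA of sorted lung ECs was sequenced in 16 libraries, and the authors aligned reads to mm10 with STAR 2.5.2b and counted them per gene with Subread featureCounts. The labels name a SMART-Seq v4 cDNA kit and the methods a TruSeq poly(A) kit. The deposited table holds raw counts and FPKM values. The authors scaled FPKM by gene length and library total. Annotation release, strand setting and multi-mapping rule are not given in the sources used here. Totals were 20.9 to 71.0 mega-counts. Replicates of a group differed by more than sampling noise.

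All genes were tested with DESeq2 1.42.0 (R 4.3.3), the study's tool, in 1 model of the 4 groups with a Wald test and Benjamini-Hochberg adjustment over all genes, and with edgeR 4.0.16. An adjusted p withheld by DESeq2 was left out. Alternatives were edgeR without a count filter, a filter of 10 counts in 3 libraries, TMM factors, the libraries of the contrast alone, leaving out each library, and limma 3.58.1 on log2(FPKM + 0.1) and log2(FPKM + 1). Tests were tried on simulated data. Sequences were searched with Python 3.11.15 and pandas 2.3.3. The members and lists were chosen with earlier results of these data known. Named were replacement genes of at least 1 FPKM, the 8 highest clustered genes by FPKM, every called member, and the 2 highest and 2 lowest log2 fold changes per contrast at a mean normalized count of at least 50. Slbp and Npat were named for their role.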

Additional observations from a re-analysis of the deposited data

Results flagged for a closer look

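Normalized counts of 6 members had 1 library far from the others of its group, among 101 groups of 4 or 5 libraries examined, where chance gives about 1 in 20. H2afz was at 4489.8 in Young Bleo 20, against 8383 to 8871 in the other Young Bleo libraries. H3f3a was at 17858 in Aged Bleo 2, against 13356 to 13666. Hist1h4i was at 383 in Young Sham 25, against 779 to 926. Hist2h2ac was at 23.4 in Young Sham 24, against 71.8 to 88.2. H1fx was at 131 in Young Sham 23, against 79.1 to 91.6. Hist2h3c1 was at 159 in Aged Bleo 2, against 133 to 136. For Hist1h2al the bleomycin response differed between the ages by -1.43 on the log2 scale, in the test of the difference itself by DESeq2.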

How the results depend on the processing

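Of the 26 calls of members by DESeq2, 26 stood with TMM factors, 25 with low counts removed, 22 of the 25 that could be fitted with the libraries of the contrast alone, 9 in edgeR, 6 in edgeR without a count filter, and 3 and 4 in limma on log2(FPKM + 0.1) and log2(FPKM + 1). With the platelet marker sum as covariate 3 stood. With the leukocyte marker sum 7 stood and 2 turned sign, H2afz in Young Bleo against Young Sham (-0.20) and H2afy2 in Aged Bleo against Young Sham (0.0747). Both covariates, and the bounds for Hist1h2ad without a library, were chosen after seeing the data.

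Clustered genes called in Young Bleo against Young Sham numbered 3 in the model used here, 1 in edgeR with or without a filter, 6 with the libraries of the contrast alone, 1 with the platelet and 0 with the leukocyte covariate. For the sham groups (aged against young) they numbered 5, and 2 in edgeR, 1 without a filter, 1 in limma with either pseudocount, 8 with the contrast alone, 1 with the platelet and 8 with the leukocyte covariate. Between the aged groups they numbered 11, and 3 in edgeR, 2 without a filter, and 0 in limma with either pseudocount and with either covariate. Over all genes limma called 84 and 36 of 26553 there and the platelet and leukocyte covariates 25 of 26553 and 51 of 26104, against 1083 of 18515 in the model used here. Between the injured groups they numbered 1, and 0 in edgeR with or without a filter, 0 in limma with a pseudocount of 0.1 and 2 with the leukocyte covariate. For Aged Bleo against Young Sham they numbered 1, and 0 in limma with either pseudocount and with the leukocyte covariate, and 2 with the contrast alone. For the difference of responses they numbered 1, and 0 in edgeR, limma and with the platelet covariate.

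Replacement genes called in Young Bleo against Young Sham numbered 3, and 1 in edgeR without a filter and 0 in limma and with either covariate. In Aged Bleo against Young Sham they numbered 1, and 0 in edgeR and limma. In the other 4 contrasts they numbered 0, and with the leukocyte covariate 1 in Aged Sham against Young Sham, 1 in Aged Bleo against Aged Sham, 2 in Aged Bleo against Young Bleo and 1 for the difference, with 1 under the platelet covariate in Aged Bleo against Young Bleo. The cause of these shifts was not tested.

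Leaving out each library gave 1 to 4 clustered genes in Young Bleo against Young Sham, 3 (without Aged Sham 14) to 7 (without Aged Sham 13) in Aged Sham against Young Sham, 5 (without Aged Sham 14) to 11 in Aged Bleo against Aged Sham, 0 to 2 in Aged Bleo against Young Bleo, 1 to 2 in Aged Bleo against Young Sham and 0 to 3 for the difference. It gave 1 to 3 replacement genes in Young Bleo against Young Sham, 0 to 1 in both other comparisons with Aged Bleo and young mice, and 0 in the remaining contrasts. Ratios of the clustered sums ranged over 0.758 to 0.819 for Young Bleo over Young Sham, 0.944 to 1.20 for Aged Bleo over Young Bleo and 0.749 to 0.950 for Aged Bleo over Young Sham. No paired analysis was possible because the replicate numbers do not repeat between groups.

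Low counts limit Hist1h2ab, Hist1h2ad, Hist1h2bn and Hist2h2aa2, and shared sequence limits which copy a count belongs to. With 3 Aged Sham libraries, 1 library moves the sums and several calls. The libraries were made from poly(A) RNA, so the total level of clustered histone mRNA was not measured.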
